A study of Drosophila melanogaster with 6 samples.

Results

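The genes described are the cytochrome P450 (Cyp), glutathione S-transferase (Gst) and UDP-glycosyltransferase (Ugt) enzymes of Drosophila. They were chosen by symbol from the authors' deposited table of genes that differed between tumor and control salivary gland imaginal rings, which gave 80 of its 6156 genes. These were 50 P450 genes, 23 Gst genes and 7 Ugt genes. The P450 set includes the Halloween genes sad and shd, which make the molting hormone and are described apart.

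RNA was sequenced from 3 control and 3 tumor samples of the imaginal ring, a band of diploid cells where the larval salivary gland meets its duct, from which the adult gland grows. Controls had the genotype Actts>GFP and were described as last-instar larvae. Tumors had the genotype Actts>GFP+NICD, so they carried the same driver and GFP together with the intracellular domain of Notch, and were labelled with 7 days at 18 °C and then 7 days at 29 °C. All 6 samples used Gal80ts, a temperature-sensitive repressor, to time expression. Neither days nor temperatures are labelled for controls, so genotype, age and temperature cannot be told apart. Whether each sample was its own animal or pool is not labelled, so the p-values cover only spread among these samples, and that spread may be technical.

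Cytochrome P450 enzymes are heme proteins that insert oxygen into small molecules, with electrons passed on by a reductase in the endoplasmic reticulum or by ferredoxin in mitochondria. Glutathione S-transferases attach glutathione to reactive molecules, and UDP-glycosyltransferases attach a sugar, which makes the products easier to excrete. In insects these enzymes break down toxins, insecticides and lipids, above all in fat body, midgut and Malpighian tubules. A few P450 enzymes instead make or inactivate ecdysone, the steroid hormone that times molting.

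The question was which of these transcripts differ between NICD tumors and control rings. The authors' deposited table holds a fold change, a mean level and a p-value per gene over both groups, and no value per sample. No SD, SE or interval can therefore be given, the depth per library is unknown, and whether samples of the groups overlap could not be seen. A positive log2 fold change means higher in tumor. Levels are mean counts per 1000000 reads (CPM) over all libraries, and CPM per kb divides that by transcript length. In bulk RNA, fewer cells of a type and less RNA per cell cannot be told apart.

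All 80 genes passed the authors' test, because the authors' deposited table lists only genes with an adjusted p below 0.05. That test may have been made against a minimum fold of 1.2 and not against no change. Of 9384 genes that the authors tested, 65.6% are listed, 34.0% as higher and 31.6% as lower in tumor, so a call by itself says little about an enzyme. Of all 159 protein-coding genes annotated in these 3 families, 85 are listed under any symbol (53.5%), beside 42.8% of all annotated protein-coding genes. Under a family symbol 79 are listed (49.7%), and these with the pseudogene Cyp6a15Psi are the 80 genes described. The other annotated family genes were either tested and not called, not tested, or listed under another symbol. The targeted gene N was 188-fold higher in tumor by the authors' deposited table, a level to which transgene reads can add.

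More of the enzyme genes were lower than higher. In the authors' deposited table, 50 of the 80 were lower (62.5%) and 30 higher, and the median log2 fold change was -1.40. Of all listed genes 48.2% were lower, with a median of 0.57. Gst genes were lower in 17 of 23 cases (median -1.45) and P450 genes in 31 of 50 (median -1.48). The mean over P450 genes in the authors' deposited table was only -0.08, since several rises were larger than most falls. Ugt genes were higher in 5 of 7 cases (median 2.09), but this split depends on gene naming, as given with the Ugt values. All 30 rises in the authors' deposited table were at least 2-fold, the smallest being GstE6 at 1.17 on the log2 scale. Among the 50 falls, 44 were at least 2-fold (88.0%). Of all listed genes, 78.5% of the rises (2502 of 3187) and 74.4% of the falls (2209 of 2969) reached that size in the authors' deposited table, which is 26.7% and 23.5% of the genes tested.

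**Figure D1:**
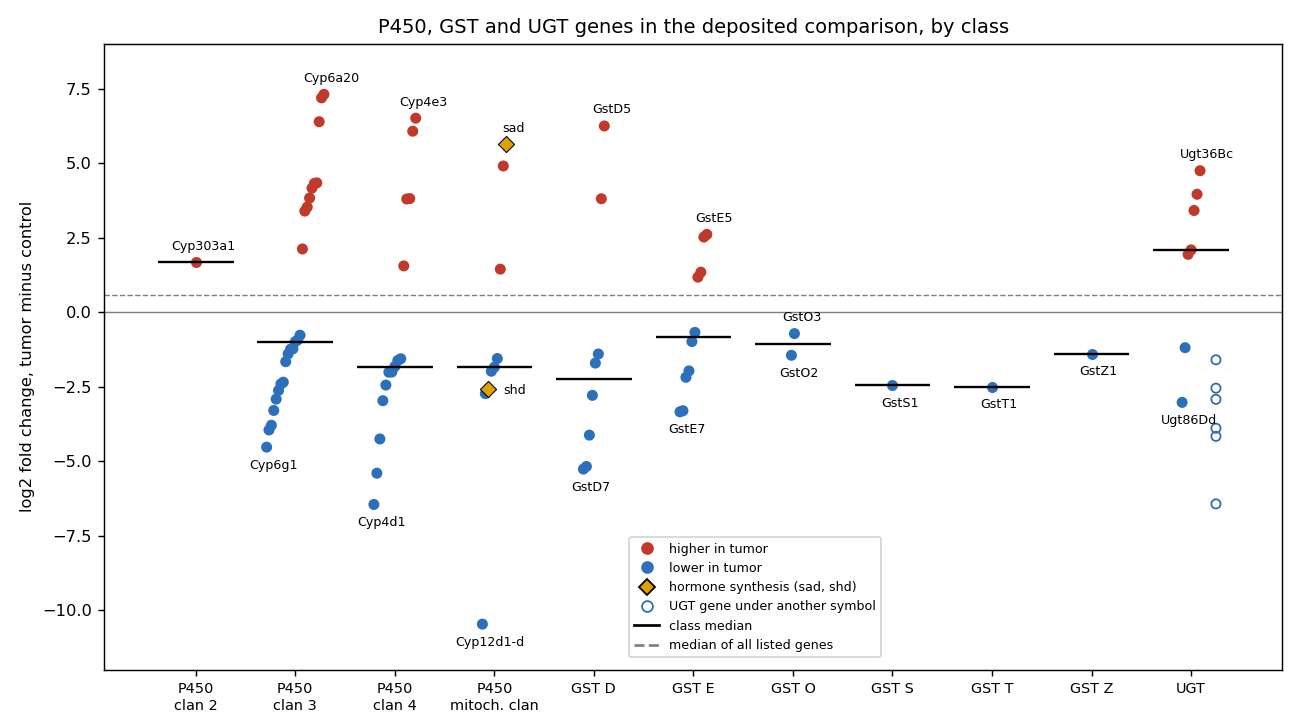
Log2 fold change (tumor minus control, from the authors' deposited table) of each enzyme gene, by P450 clan, Gst class and Ugt; black lines are class medians, diamonds are sad and shd, and open circles are 6 Ugt genes listed under other symbols, which are outside the class median. Every class with more than 2 genes spans both directions, and the values run from -10.47 for Cyp12d1-d to 7.31 for Cyp6a20.

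Of the 6 Halloween P450 genes, which act in the synthesis of the active hormone, 2 are listed, and they moved in opposite directions. The gene sad (shadow), whose mitochondrial enzyme performs a late hydroxylation in the prothoracic gland, was 49.8-fold higher in tumor by the authors' deposited table (log2 fold change 5.64, adjusted p = 0.026, mean 8.83 CPM). Its adjusted p lay above 0.01, whereas 69 of the 80 genes had one below 0.01 in the authors' deposited table. A weak p at so large a fold can come from wide spread among samples. Whether a single sample carries the sad rise could not be seen without values per sample. The gene shd (shade), whose enzyme makes the active hormone in peripheral tissues such as fat body, was 5.96-fold lower in tumor by the authors' deposited table (log2 fold change -2.58, adjusted p = 1.4e-05, mean 13.6 CPM).

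The Halloween genes spo, spok, dib and phm (phantom, now phtm) are not listed. A listed gene Phm is another enzyme, which amidates peptides. Cyp18a1, which inactivates the hormone, and GstE14, a transferase needed for its synthesis, are not listed either.

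Of 17 other genes chosen for ecdysone synthesis, transport and breakdown, 8 are listed, 2 higher and 6 lower, and their median on the log2 scale was -1.26. The gene sro, which encodes an early enzyme of the pathway, was 3.25-fold lower in tumor by the authors' deposited table, and mld, a zinc finger gene that drives spok, was 7.62-fold higher. Ecdysone oxidase, Eo, was 7.65-fold lower and the transcription factor gene vvl 7.82-fold higher in tumor by the authors' deposited table. Of 5 prothoracic gland markers fixed for the comparison, nvd, ouib and tor are not listed, while sro and mld are the remaining members. The prothoracic gland's part in the sad value was not tested.

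Clan 3, the largest group of P450 enzymes and the one with most insecticide-metabolizing members, had 10 higher and 15 lower genes, and the largest P450 rises. Cyp6a20, an enzyme known for its effect on male aggression, was 158.6-fold higher in tumor by the authors' deposited table (log2 fold change 7.31, adjusted p = 1.9e-05, mean 81.6 CPM) and ranked 71 among all 6156 listed genes from the largest rise. Cyp6a17, known from temperature preference, followed in the authors' deposited table at 146-fold higher (adjusted p = 8e-06, mean 32.9 CPM). Cyp6a8, an enzyme that oxidizes fatty acids and is raised in insecticide-resistant strains, was 83.9-fold higher in tumor by the authors' deposited table (mean 9.20 CPM). Further rises in the authors' deposited table were those of Cyp6t3 (20.2-fold), Cyp6g2 (17.9-fold), Cyp6a19 (14.2-fold) and Cyp317a1 (10.5-fold), each with a mean below 7 CPM.

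The falls in clan 3 were smaller and lay at higher mean levels. Cyp6g1, whose overexpression gives resistance to DDT and neonicotinoids, was 23.1-fold lower in tumor by the authors' deposited table (log2 fold change -4.53, adjusted p = 0.00012, mean 127.9 CPM). Cyp28d1 (15.5-fold), Cyp6a23 (13.9-fold) and Cyp309a1 (9.84-fold) were also lower in tumor by the authors' deposited table. All 4 listed Cyp9 genes and all 3 listed Cyp28 genes were lower, with median log2 fold changes of -2.14 and -2.41 in the authors' deposited table. Cyp9b2 was 6.17-fold lower at a mean of 145.5 CPM, the highest mean level in the clan by the authors' deposited table. Cyp310a1, reported as an inhibitor of Wingless signaling, was 2.64-fold lower in tumor by the authors' deposited table.

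Clan 4, whose members act mainly on fatty acids and hydrocarbons, had 5 higher and 10 lower genes. Cyp4d1 had the highest mean level of any P450 gene (313.9 CPM, or 189 CPM per kb) and was 87.7-fold lower in tumor by the authors' deposited table (log2 fold change -6.45, adjusted p = 0.00033). Cyp4s3 was 42.4-fold lower at 144 CPM in the authors' deposited table, and the 3 Cyp4ac genes were lower by log2 fold changes between -4.26 and -2.01. In the other direction, Cyp4e3, known from pyrethroid tolerance, was 91.2-fold higher in tumor by the authors' deposited table at a mean of 3.79 CPM. Cyp312a1 was 67.3-fold higher at 33.9 CPM and Cyp4aa1 13.9-fold higher at 10.4 CPM in the authors' deposited table. Cyp4g1, the oenocyte enzyme that makes cuticular hydrocarbons, and Cyp4g15 are not listed.

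The mitochondrial clan, which holds sad and shd, had 3 higher and 6 lower genes. All 5 listed Cyp12 genes were lower. The neighbouring Cyp12d1 copies, known to respond to insecticides, had log2 fold changes of -10.47 (Cyp12d1-d) and -2.73 (Cyp12d1-p) in the authors' deposited table. These copies are nearly identical, so reads can be split between them and each value is uncertain. For Cyp12d1-d the authors' deposited table also gives an unshrunk log2 fold change of -11.07. Cyp12e1 (3.95-fold) and Cyp12c1 (3.60-fold) were lower at 44.6 and 30.2 CPM in the authors' deposited table. Cyp49a1 was 30.0-fold higher (mean 11.4 CPM, adjusted p = 2.9e-05) in the authors' deposited table. Cyp301a1, needed for adult cuticle formation, was 2.72-fold higher in tumor by the authors' deposited table.

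Clan 2, which holds several developmental P450 genes, has 7 annotated genes, among them phm, spo, spok and Cyp18a1, given above as not listed. Unlisted genes may not have been tested. Of the 7, 1 gene is listed (14.3%), beside 42.8% of all annotated protein-coding genes. That gene, Cyp303a1, which acts in sensory bristle development, was 3.19-fold higher in tumor by the authors' deposited table (adjusted p = 0.039) at a mean of 1.71 CPM.

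Glutathione S-transferases made up 70.6% of the summed mean CPM of the 80 genes, and GstD1 alone 42.6%. By the group levels estimated from the authors' deposited table, the GstD1 share was 46.9% in control and 26.2% in tumor, and that of all Gst genes 71.8% and 65.8%. GstD1, the best-studied fly transferase, which can break down DDT, had a mean of 2943 CPM (3529 CPM per kb) and was 6.92-fold lower in tumor by the authors' deposited table (log2 fold change -2.79, adjusted p = 0.0029). Next per length came GstE12 (298 CPM per kb, 4.55-fold lower), GstD10 (266 CPM per kb, 36.2-fold lower) and GstD3 (241 CPM per kb, 3.27-fold lower) in the authors' deposited table. All 5 listed genes outside classes D and E were lower. Among them, GstS1, which conjugates products of lipid peroxidation, was 5.48-fold lower in tumor by the authors' deposited table at 245 CPM. GstT1 (5.68-fold), GstO2 (2.73-fold), GstO3 (1.65-fold) and GstZ1 (2.63-fold), whose class acts in tyrosine breakdown, were lower too in the authors' deposited table.

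The 6 rises were confined to classes D and E among listed Gst genes. GstD5 was 76.0-fold higher in tumor by the authors' deposited table (log2 fold change 6.25, adjusted p = 8e-06, mean 52.6 CPM), and GstD2 was 14.0-fold higher at 137 CPM. In class E, GstE5 (6.10-fold), GstE2 (5.74-fold), GstE1 (2.53-fold) and GstE6 (2.26-fold) were higher in tumor by the authors' deposited table. GstE7 (10.2-fold) and GstE3 (9.90-fold) were the largest falls of class E in the authors' deposited table.

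Transcript length moved with direction over the 6111 listed genes with a known length. Of the 1528 shortest 78.0% were lower (median log2 fold change -1.46 in the authors' deposited table), and of the 1528 longest 9.69% (median 1.51). Gst transcripts are short. Their median length was 840 bases, against 1874 for all listed genes. Of the 334 listed genes between 755.5 and 917.5 bases, the middle range of Gst lengths, 79.6% were lower (median log2 fold change -1.40 in the authors' deposited table), beside 73.9% of Gst genes. The share of lower Gst genes was thus no larger than that of listed genes of like length. For P450 genes the median length was 1779 bases, and 57.6% of the 528 listed genes of like length were lower, beside 62.0% of P450 genes. For the 7 Ugt genes the median length was 1803 bases, and 56.4% of the 413 listed genes of like length were lower, beside 28.6% of these Ugt genes, a share that depends on gene naming. The part of length in these counts was not tested.

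The Ugt genes named as such were mostly higher. Ugt36Bc was 26.8-fold higher in tumor by the authors' deposited table (log2 fold change 4.75, adjusted p = 0.00013, mean 28.6 CPM). Ugt86Di (15.5-fold), Ugt36Ba (10.6-fold), Ugt86Da (4.26-fold) and Ugt58Fa (3.84-fold) were higher in tumor by the authors' deposited table. Ugt86Dd, known from nicotine resistance, was 8.15-fold lower and Ugt35a 2.29-fold lower in tumor by the authors' deposited table. The table uses older gene names, however, and 6 further genes that RefSeq now names as Ugt stand in it under other symbols. All 6 were lower: CG5999 (86.5-fold), CG10178 (18.0-fold), CG17322 (14.9-fold), CG17323 (7.59-fold), CG4302 (5.86-fold) and Dot (3.03-fold) in the authors' deposited table. With them, 5 of 13 listed Ugt genes were higher and 8 lower, and the median changed sign to -1.60. These 6 were looked up after their values could be seen, apart from Dot.

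Genes that rose had lower mean levels than genes that fell. The median of the mean CPM was 6.68 for the 30 higher genes and 28.7 for the 50 lower genes in the authors' deposited table, beside 17.8 and 36.3 for all listed genes. Above the table's median level of 25.1 CPM, 28 of 37 enzyme genes were lower (75.7%, and 58.2% of all listed genes). Below it, 22 of 43 were lower (51.2%, and 38.2% of all listed genes). Of the 20 members with the highest CPM per kb, 18 were lower, GstD2 and GstE1 being the exceptions in the authors' deposited table. Among the 20 with the lowest CPM per kb, 13 were higher.

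**Figure D2:**
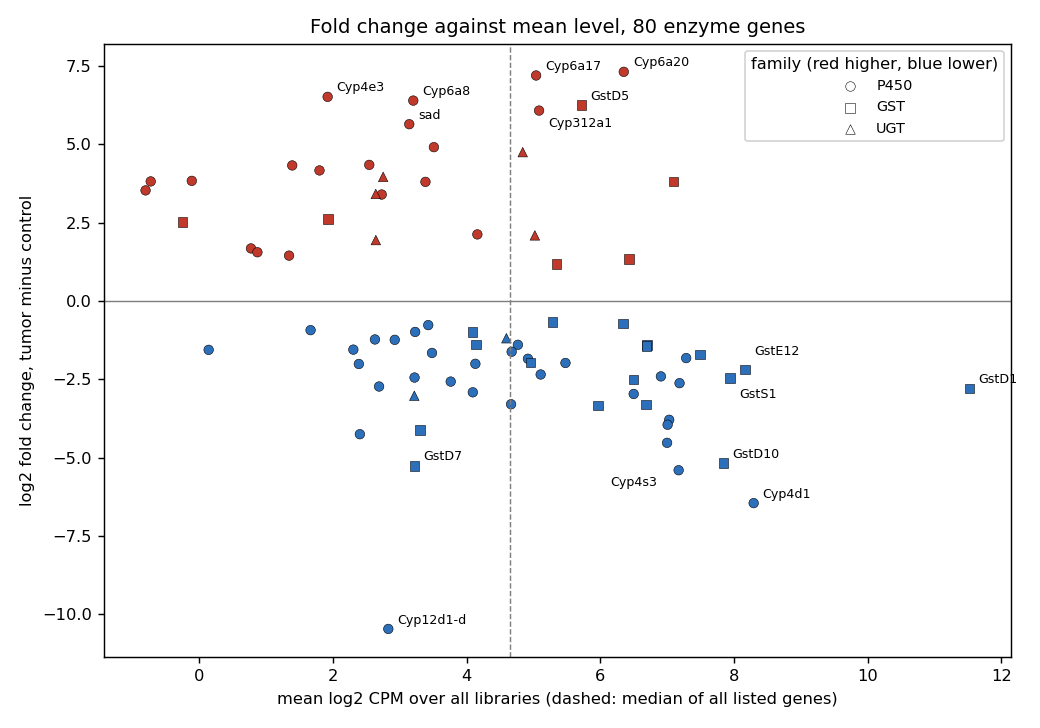
Log2 fold change (vertical) against mean log2 CPM over all libraries (horizontal) for the 80 genes, both from the authors' deposited table, with circles for P450, squares for Gst and triangles for Ugt. The high-level side is mostly blue (lower), led by GstD1 at 2943 CPM, while Cyp6a20, Cyp6a17, Cyp312a1, GstD5, Ugt36Bc and GstD2 are the larger rises at levels above the table's median.

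Many of these genes lie side by side in arrays of related copies, and several arrays held large changes of both signs. In chromosome order the GstD array holds 11 annotated genes, of which 8 are listed, 2 higher and 6 lower. GstD1 (-2.79) lies next to GstD2 (3.81), which is followed by GstD3 (-1.71), GstD4 (-4.13) and GstD5 (6.25) as log2 fold changes in the authors' deposited table. The main GstE array holds 10 annotated genes with 7 listed, 4 higher and 3 lower. The array of Cyp6a genes and Cyp317a1 holds 9 genes with 8 listed, 6 higher and 2 lower. There Cyp6a17 (7.19) stands between Cyp6a22 (-0.99) and Cyp6a23 (-3.80) on the log2 scale of the authors' deposited table. Cyp6g1 (-4.53) is followed by Cyp6g2 (4.16) and Cyp6t3 (4.34), and Cyp309a1 (-3.30) by Cyp309a2 (4.32), in the authors' deposited table. By contrast, all listed members of the Cyp4ac, Cyp9b, Cyp28d and Cyp12d1 arrays were lower. Array members resemble each other in sequence, so reads can be shared between copies, and the counting rule is not given in the sources used here.

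Opposite directions were no more common among these neighbours than elsewhere. Of 29 directly adjacent pairs of listed genes of the same family, 12 had opposite signs (41.4%), beside 42.2% of the 2845 other adjacent listed pairs. The size of the difference within a pair was larger, with a median of 3.38 on the log2 scale against 1.89 in other pairs. Enzyme genes as a set also had larger changes. All of their rises and 88.0% of their falls were at least 2-fold, beside 78.5% and 74.4% for all listed genes. Enzyme genes that are not adjacent were not compared, so the larger difference is not shown to be particular to neighbours. Pairs within an array share genes and are not independent, so no test was made.

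**Figure D3:**
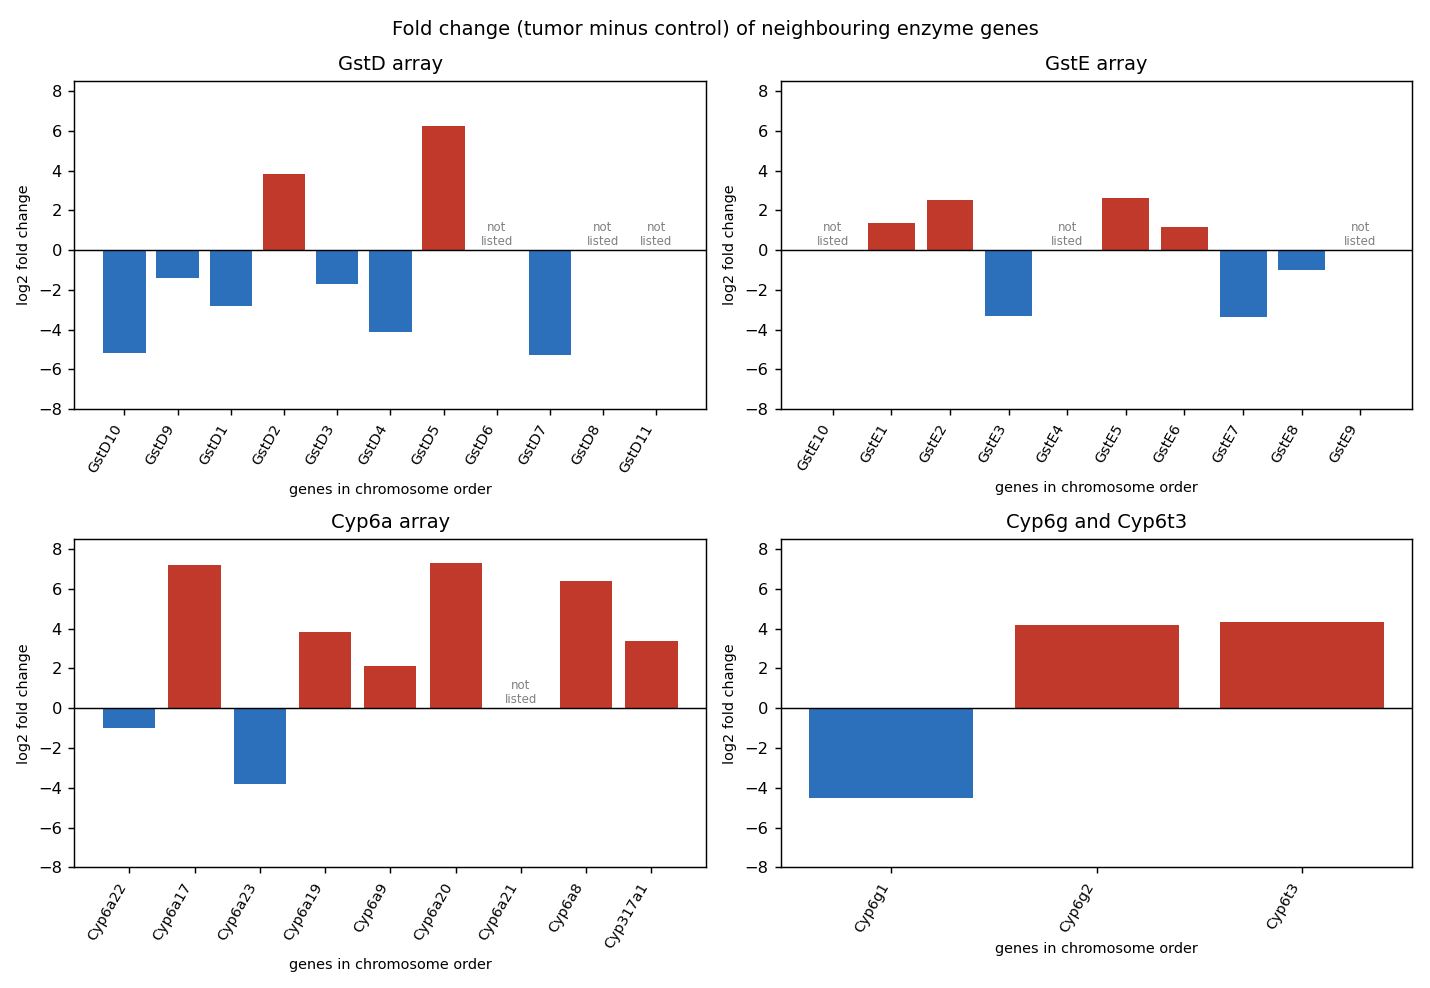
Log2 fold change (tumor minus control, from the authors' deposited table) of the genes of 4 arrays in chromosome order, with red bars for higher and blue bars for lower in tumor; genes outside the table are marked as not listed. GstD5 (6.25) and GstD4 (-4.13), and Cyp6a17 (7.19) and Cyp6a23 (-3.80), are neighbours with opposite signs.

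Genes that serve the 3 enzyme families did not move as a block. For comparison with every gene list, 51.8% of all listed genes were higher and 48.2% lower. No gene list was matched for transcript length. Of 6 genes chosen for P450 electron transfer, 4 are listed and all were lower (median log2 fold change -2.15). Among them, Fdx2 and dare are also counted in the ecdysone list above. Cyt-b5 and Cyt-b5-r, a cytochrome b5 and a related protein, were 4.24-fold and 18.2-fold lower, and the mitochondrial partner genes Fdx2 and dare 4.66-fold and 2.63-fold lower in tumor by the authors' deposited table. The P450 reductase gene Cpr is not listed. Gclc, the catalytic subunit for glutathione synthesis, was 2.17-fold higher in tumor by the authors' deposited table, and the other 3 genes chosen for glutathione supply are not listed. Sugar donors for Ugt enzymes had 4 of 4 genes listed, 1 higher and 3 lower, with UGP 9.90-fold lower and the UDP-glucose dehydrogenase gene sgl 3.49-fold higher in tumor by the authors' deposited table.

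Of 7 regulators of detoxification genes, cnc, the fly Nrf2 gene, is listed, 2.14-fold higher in tumor by the authors' deposited table (adjusted p = 0.0011), while its inhibitor Keap1 and the nuclear receptor gene Hr96 are not. All 6 export transporter genes chosen were higher (median 2.49 on the log2 scale), beside 51.8% of all listed genes. Of the 1528 longest listed transcripts 90.3% were higher. The lengths of these 6 transporter genes were not compared, and the part of length was not tested. Mdr50 was 11.7-fold, Mdr49 6.86-fold, Mdr65 5.78-fold and MRP 3.78-fold higher in tumor by the authors' deposited table. Of 4 genes for transferases or Gst-domain proteins under other names, se and gfzf are not listed. The other two were lower, the microsomal gene Mgstl 4.44-fold and eEF1gamma, a translation factor with a Gst domain, 1.99-fold lower in tumor by the authors' deposited table.

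Antioxidant enzymes had 9 of 11 listed genes lower (median log2 fold change -1.68). Of all listed genes 48.2% were lower, and of the 1528 shortest 78.0%. The lengths of the antioxidant and carboxylesterase genes were not compared, and the part of length was not tested. Catalase, Cat, was 4.60-fold lower and the superoxide dismutase genes Sod1 and Sod2 2.69-fold and 3.20-fold lower in tumor by the authors' deposited table. Trxr1, the thioredoxin reductase gene, and Sod3 were 2.41-fold and 1.85-fold higher in tumor by the authors' deposited table. Carboxylesterases, another family that breaks down insecticides, were lower in 5 of 6 listed genes (median -2.15), with alpha-Est2 39.2-fold and alpha-Est8 18.9-fold lower in tumor by the authors' deposited table.

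Markers chosen for other tissues, and for secretory cells of the salivary gland, differed alongside these enzymes. Whether the ring itself expresses these marker genes was not tested. All 10 fat body markers were lower (log2 fold changes from -12.32 to -0.59, none fitted at 0), and the authors' deposited table gives for them an estimated 194120 CPM in control against 1721 CPM in tumor. All 11 salivary secretory markers were lower, with 278062 CPM in control and 164 CPM in tumor estimated from the authors' deposited table. All 9 listed hemocyte markers of 12 were higher (log2 fold changes from 2.50 to 6.16, and NimC4 fitted at 0 in control), with 29.5 CPM in control and 1501 CPM in tumor by the same estimate from the authors' deposited table. All 7 listed tracheal markers of 9 were higher (1.17 to 4.10), with 221 and 926 CPM estimated from the authors' deposited table. These estimates rest on unknown scaling and sum to 1224980 CPM over the listed genes in control, so they are not shares of reads.

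Oenocyte markers had 1 higher and 2 lower of 5. The 2 listed Malpighian tubule markers of 9, Irk2 and Nha1, were higher, and Uro and CapaR are not listed. The single listed midgut marker of 9, Mal-A6, was lower. On the same estimate from the authors' deposited table, the sums in control and tumor were 7886 and 1862 CPM for Gst genes, 3023 and 811 CPM for P450 genes, and 69.1 and 158 CPM for the 7 Ugt genes. Over all listed genes the same estimate gave 1224980 CPM in control and 351471 CPM in tumor. The sum was thus 3.49-fold lower in tumor for all of them, beside 4.24-fold for Gst genes and 3.73-fold for P450 genes. A few high genes weigh heavily in these sums, so they do not describe the typical gene. The control sum of all listed genes includes 278062 CPM of salivary secretory and 194120 CPM of fat body markers, while the median listed gene was higher in tumor (log2 fold change 0.57). The Gst sums include GstD1, at 5144 CPM in control and 743 CPM in tumor. The part of other tissues, or of secretory cells of the salivary gland, in the enzyme values was not tested.

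**Figure D4:**
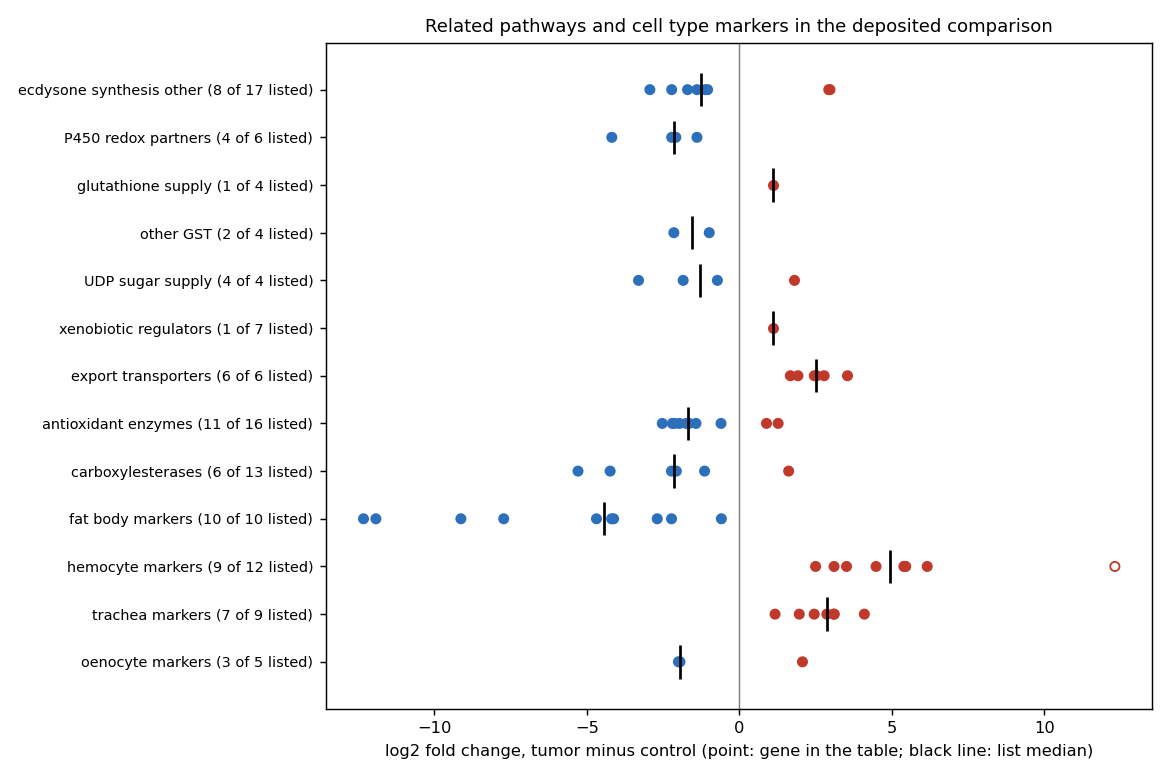
Log2 fold change (horizontal, from the authors' deposited table) of each listed gene in related pathways and tissue marker lists; black lines are list medians without the gene fitted at 0 in control, which is drawn as an open circle at its fitted value (NimC4). Electron transfer partners, carboxylesterases and fat body markers lie mostly on the lower side, and export transporters, hemocyte and tracheal markers on the higher side.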

How the data were processed

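RNA sequencing of 3 control and 3 tumor samples was the basis of the authors' comparison. Per the submitters' processing notes, featureCounts and DESeq2 were used, without versions. Per the file headers, the columns carry the names that edgeR gives to a test of folds beyond a minimum. The sources used here do not give aligner, build, annotation or strand setting. The authors' deposited values are a shrunken log2 fold change, the same without shrinkage (treated as a score, since a group fitted at 0 gives sizes above 100), log2 CPM averaged over libraries, a p-value and its adjusted value. Another deposited sheet, by the authors, gives call numbers. The 6156 calls stand there under the heading log 1.2, read here as a minimum fold of 1.2.

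No value per sample was used, so no test was run here. Counts, medians and folds (Python 3.11.15, pandas 2.3.3) rest on the first log2 value, and counting was tested on simulated data. Names and gene order came from RefSeq (Release 6, by Entrez ID, all 80 genes matched), and transcript lengths from BDGP6 (Ensembl release 115). The authors' build is unknown, so no coordinates are printed, and no sequence was used here. CPM per group was estimated from the fold change, with the mean CPM halfway between the groups. Arrays are annotated genes of a family with gaps up to 10 kb.

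Members and gene lists were chosen with earlier results of these data known. Named genes are the hormone genes, the largest changes and highest levels per class, list members and array neighbours. The results of 1 gene list are not reported here. Alternatives used a 2-fold minimum, an adjusted p below 0.01, the lower quartile of mean CPM, the unshrunk value, the mean, and added Gst and Ugt symbols. Chosen after seeing the data were RefSeq naming, leaving out close copies or the pseudogene, and centring on the table's median.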

Additional observations from a re-analysis of the deposited data

How the results depend on the processing

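Of 102 recomputed counts and medians, 87 kept their direction and stayed within 1.5 times of the value reported. Part of that tally was fixed in advance. The added Gst and Ugt symbols cannot change P450 genes, and leaving out the pseudogene cannot change Gst, Ugt or hormone genes. The 2-fold minimum could not change a count of higher genes, because all 30 rises were at least 2-fold. Centring shifts each median by 0.57 on the log2 scale, which is less than 1.5 times, so those medians could not leave that limit. The tally is therefore no measure of robustness. RefSeq naming left the P450 counts as they were. All 80 single genes kept their direction with the unshrunk value, which differed from the first value by a median of 0.00075 on the log2 scale. Above the lower quartile of mean CPM, 8 P450 genes were higher (19 without the filter), and of the Ugt genes 2 were higher, with a median of 0.45. The mean log2 fold change of P450 genes was -0.077 in place of the median of -1.48. An adjusted p below 0.01 left 0 hormone genes higher. With RefSeq names 8 Ugt genes were lower and the median reversed to -1.60. Leaving out 51 members with a gene of the same subfamily within 5 kb left 9 higher and 14 lower P450 genes, 0 higher and 4 lower Gst genes (median -2.08), and 1 Ugt gene in each direction (median reversed to -0.54); fewer genes enter there by construction. Centring on the table's median of 0.57 changed no split, and could not, because the smallest rise was 1.17 (GstE6). Leaving out genes by protein identity was not run, since no protein sequence was used here. Leaving out replicates, other normalizations and no low-count filter were not run, since they need values per sample. No paired analysis was possible because the table holds no value per sample. Depth per library is unknown, so genes with a mean near 1 CPM, such as GstE2, Cyp6a19 and Cyp4p2, have unknown counting error. The same holds for the size of folds with an estimated level near 0 in 1 group. Examples are Cyp12d1-d in tumor (0.010 CPM), and Cyp4e3 (0.082 CPM) and Cyp6a8 (0.22 CPM) in control.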
